A study of Mus musculus with 11 samples.

Results

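The 42 genes described here belong to the interferon response and to the processing of antigen for major histocompatibility complex (MHC) class I. They were chosen by name, and each was represented by its brightest probe set with a single gene symbol, out of 18193 genes on the array. Of the 42, 34 were bright enough to be tested, 6 were too dim, and 2 (Isg15 and Ifi44) had no probe set with a symbol of their own and are not analysed here. Total RNA was hybridised to single-channel Affymetrix arrays from back skin keratinocytes of K5-myrAkt(L84) mice, a transgenic line that expresses a membrane-anchored, active form of Akt from the keratin 5 promoter. Cells were labelled with an antibody against CD34, a surface marker of bulge stem cells in the mouse hair follicle, and separated with magnetic beads into a CD34+ fraction (5 arrays) and a CD34- fraction (6 arrays). Both fractions carry the transgene, so the comparison asks how they differ within the same transgenic skin and measures no effect of Akt. The age and sex of the mice, the hair cycle stage and any pooling are not given in the labels, nor is it stated that arrays came from separate animals, so p-values measure only the spread between these samples.

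Interferons are secreted proteins that alert cells to infection. Type I interferons bind a receptor of the Ifnar1 and Ifnar2 chains, and interferon gamma binds Ifngr1 and Ifngr2. Both receptors signal through Janus kinases to STAT and IRF transcription factors, which bind the interferon-stimulated response element or the gamma-activated site in the promoters of target genes. The targets include sensors and blockers of viral RNA, GTPases that act on intracellular pathogens, and the machinery that cuts proteins into peptides, moves them into the endoplasmic reticulum and loads them on MHC class I. Epidermal keratinocytes keep a low level of this program, and parts of the hair follicle epithelium are known for low MHC class I.

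The binding motifs were looked for in the RefSeq promoters (GRCm38.p6, 250 bases before to 50 after each start), which were matched for 33 of the 42 genes. The response element was searched as GAAA, any 2 bases and GAAA again, and the gamma-activated site as TTCNNNGAA, on both strands. A gene or window with any match was counted, and overlapping matches run together in the capitals printed below. A response element was found for 15 of the 33 genes and in 36.6% of their 41 promoter windows, against 3.44% of all 32851 windows. A gamma-activated site was found for 9 of the 33 and in 22% of their windows, against 8.3% of all windows. The stretches below show motifs of called genes (Ifit1 and Psmb8) and, as examples, of genes that were not called. The motif is in capitals, and each stretch lies before the transcript start that the RefSeq promoter table uses. For Ifit3 that start is not the first base of the gene, whose annotated span begins at 34583119, so its stretch lies inside the span. The called gene Ifih1 has a response element that lies after its start and is not printed.
Ifit1, chr19:34640779-34640818, plus strand: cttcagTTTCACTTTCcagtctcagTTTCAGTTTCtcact
Ifit3, chr19:34583373-34583416, plus strand: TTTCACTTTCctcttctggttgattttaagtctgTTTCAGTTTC
Rsad2, chr12:26456548-26456587, minus strand: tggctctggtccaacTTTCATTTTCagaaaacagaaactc
Irgm1, chr11:48871423-48871462, minus strand: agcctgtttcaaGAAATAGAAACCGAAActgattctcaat
Gbp2, chr3:142620589-142620628, plus strand: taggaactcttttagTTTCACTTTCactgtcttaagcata
B2m, chr2:122147533-122147572, plus strand: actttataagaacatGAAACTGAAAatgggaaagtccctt
Irf1, chr11:53769908-53769947, plus strand: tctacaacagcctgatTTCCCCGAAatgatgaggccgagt
Psmb8, chr17:34198082-34198121, plus strand: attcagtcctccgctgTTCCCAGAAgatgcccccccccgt
The first 6 stretches carry response elements and the last 2, of Irf1 and Psmb8, carry gamma-activated sites. A match is a description of letters and not of a factor bound there.

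Most interferon and class I genes differed little between the fractions. At an adjusted p under 0.05, 1 of the 34 tested genes (Ifit1) was higher and 2 (Ifih1 and Psmb8) were lower in CD34+ cells, which is 8.82%, against 24.7% of all 10916 tested genes (12.4% higher and 12.3% lower). The groups did not overlap for 1 of the 34, Psmb8, or 2.94%, against 15% of all tested genes. At an unadjusted p under 0.05 there were 11 genes, 32.4% of the 34 against 39.3% of all genes. Differences are given throughout as CD34+ minus CD34- on the log2 scale, from a limma fit with Benjamini-Hochberg adjustment over all tested genes. The median difference was -0.08 for the 34 genes and 0.00 for all genes, and the median size, whatever the direction, was 0.30 against 0.32. On the probe sets used, none of the 34 tested genes differed by more than 0.81 in size, whereas 7.76% of all tested genes differed by 1 or more. Dimmer probe sets of some of the 34, and some of the 6 genes too dim to be tested, differed by more.

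**Figure D1:**
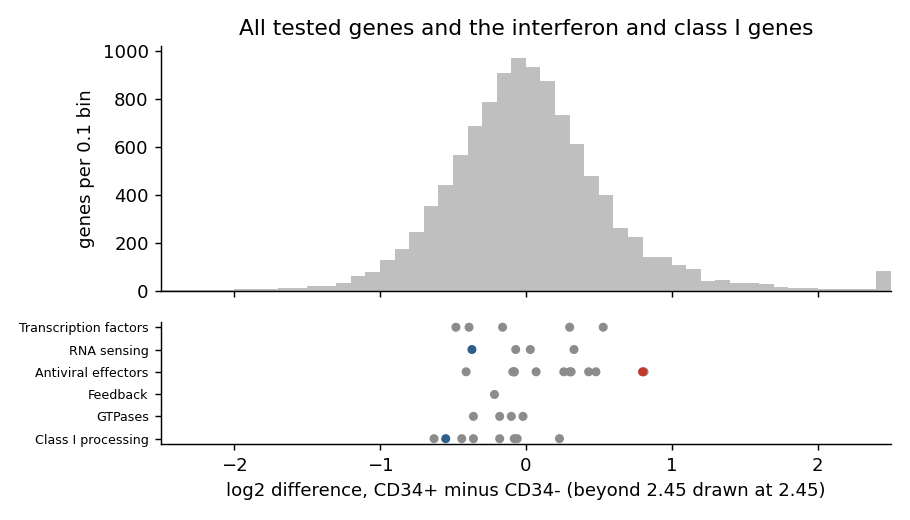
Top, number of tested genes in each 0.1-wide bin of the log2 difference, CD34+ minus CD34-. Bottom, 1 point for each of the 34 tested interferon and class I genes by role, red where called higher, blue where called lower and grey where not called; all lie between -0.63 and 0.81.

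A gene that was not called is not shown to be equal. The intervals reflect only the spread between arrays of the probe set used, with the deposited scaling, and do not limit the gene itself. For Ddx58 the interval was -0.40 to 0.45 and another probe set gave 1.00, and for Irf3 it was -0.54 to 0.23 and another gave -1.23. For 28 of the 34 genes the 95% interval of the difference lay within 2-fold in both directions. The interval of Psmb9 reached beyond a 2-fold lower level, and those of Irf7, Isg20, Ifit1, Ifit3 and Rsad2 reached beyond a 2-fold higher level. The counts depended on how arrays were scaled. Setting each array to the same median moved the median of all tested genes by -0.48, with 395 genes called higher and 5217 lower against 1350 and 1347 as deposited, and with it 0 of the 34 genes were called higher and 18 lower, with a median of -0.56. Quantile normalization gave 0 higher and 1 lower of the 34, with 972 higher and 1315 lower of all 10916 tested genes.

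**Figure D2:**
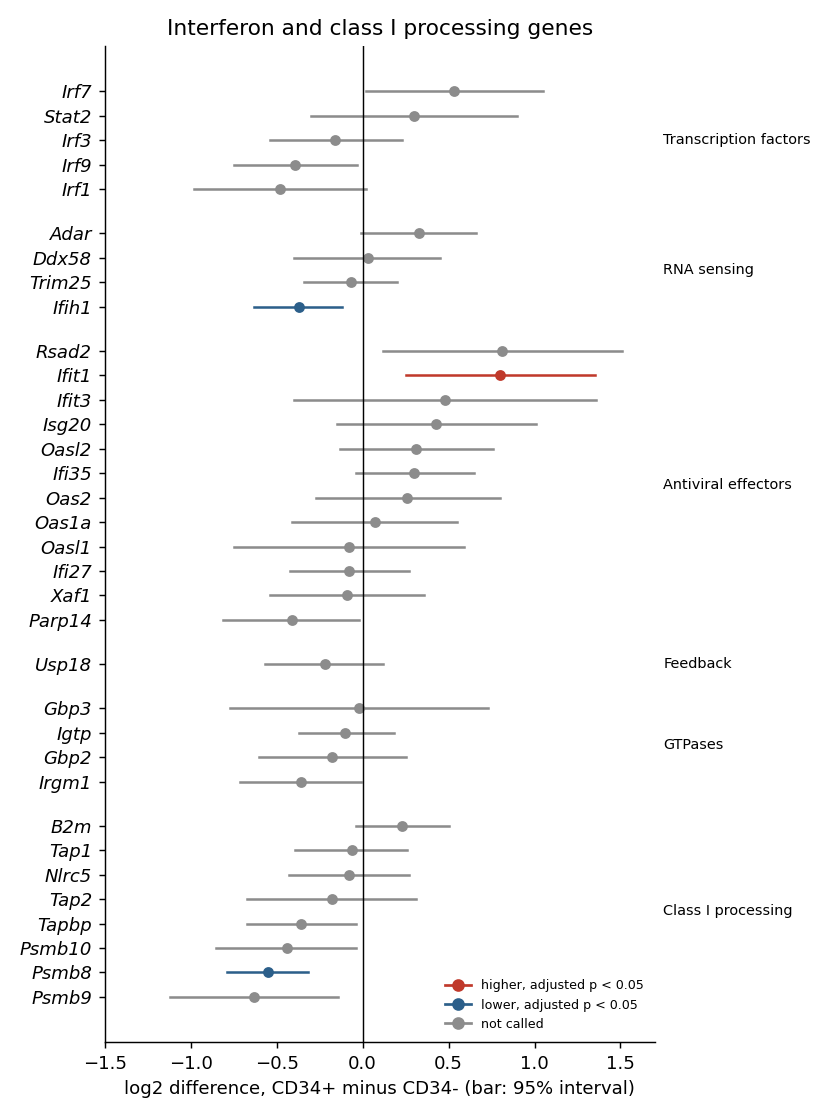
Log2 difference, CD34+ minus CD34-, of each of the 34 tested genes by role, with its 95% interval as a bar. Ifit1 (red) was called higher and Ifih1 and Psmb8 (blue) lower, and the class I genes other than B2m lie left of 0.

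The transcription factors of the pathway were not called. Irf9, the DNA-binding part of the complex that type I interferons activate, had log2 signals of 8.96, 9.24, 9.80, 9.04 and 9.42 on CD34+ arrays 1 to 5 and of 10.02, 9.76, 9.56, 9.75, 9.62 and 9.39 on CD34- arrays 1 to 6. Its values were mostly lower on CD34+ arrays, but the groups overlapped, and the difference was -0.39 (SE 0.17, limma adjusted p = 0.104). Stat2, its partner in that complex, differed by 0.30 (SE 0.28, adjusted p = 0.453). Irf1, which interferon gamma induces and which drives class I genes, differed by -0.48 (SE 0.24, adjusted p = 0.145). CD34+ array 1 gave the lowest Irf1 signal at 9.16, with 10.06 to 10.76 on the other CD34+ arrays and 10.57 to 10.82 on CD34- arrays. Irf7, which amplifies type I interferon production, had the highest difference of the 5 factors at 0.53 (SE 0.24, adjusted p = 0.115). Irf3, the factor that first switches on type I interferon genes, differed by -0.16 (SE 0.18, adjusted p = 0.541). Other probe sets of a gene were tested in a separate limma fit of every probe set, with p-values adjusted over all of them. The other Irf3 probe sets gave -1.23 (adjusted p = 0.0334), 0.51 (adjusted p = 0.276) and 0.29 (adjusted p = 0.334), so its direction depended on the probe set.

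Among genes that sense or edit viral RNA, 1 of 4 tested was lower, or 25% called, close to the 24.7% of all tested genes. Ifih1 encodes MDA5, a cytosolic sensor of long double-stranded RNA. Its log2 signals were 10.96, 10.90, 10.92, 11.28 and 11.31 on CD34+ arrays 1 to 5 and 11.24, 11.37, 11.44, 11.55, 11.51 and 11.56 on CD34- arrays 1 to 6. CD34+ arrays 4 and 5 reached the lower end of the CD34- values, and the other 3 lay below it. The difference was -0.37 (SE 0.12, limma adjusted p = 0.036), a level 1.30-fold higher in CD34- cells. This call was lost on leaving out CD34+ array 1, 2 or 3 or CD34- array 2, 3, 4, 5 or 6, singly, with adjusted p between 0.0521 and 0.0754. It was also lost with CD34+ arrays 1 and 2 both left out (-0.28, adjusted p = 0.145) and with CD34- arrays 1 and 2 both left out (-0.44, adjusted p = 0.0502). Ddx58, which encodes the related sensor RIG-I, differed by 0.03 (SE 0.20, adjusted p = 0.938), but a dimmer probe set gave 1.00 (adjusted p = 0.0276). Trim25, a ubiquitin ligase that activates RIG-I, differed by -0.07 (SE 0.13, adjusted p = 0.727). Adar, which edits double-stranded RNA, differed by 0.33 (SE 0.16, adjusted p = 0.135), with 0.99 (adjusted p = 0.00785) and -1.11 (adjusted p = 0.173) on its other probe sets. Dhx58, the third receptor of the family, was below the brightness filter and was not tested. It read 5.38 to 7.86 on CD34+ arrays and 2.63 to 6.19 on CD34- arrays, where 5 of 6 values lay in the dimmest 40% of the array.

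Of 12 tested antiviral effector genes, 1 was higher, or 8.33% called, against 24.7% of all tested genes. Ifit1, which binds viral RNA that lacks the cap of host messenger RNA, had log2 signals of 7.83, 7.01, 7.18, 7.64 and 7.95 on CD34+ arrays 1 to 5. In CD34- cells it read 7.21, 6.51, 6.54, 6.46, 7.12 and 6.50 on arrays 1 to 6. CD34- arrays 1 and 5 lay among the lower CD34+ values, and the other 4 lay below all of them. The difference was 0.80 (SE 0.26, limma adjusted p = 0.0368), a level 1.74-fold higher in CD34+ cells. The call was lost on leaving out CD34+ array 1, 4 or 5 or CD34- array 2, 3, 4 or 6, singly, with adjusted p between 0.0641 and 0.0824. Ifit1 was dim, and its values on CD34- arrays 2, 3, 4 and 6 lay under 6.59, the lowest mean of a tested gene. The median of all probe sets other than controls was higher on CD34+ arrays, at 6.70 to 7.23 against 6.35 to 6.51. After quantile normalization the Ifit1 difference was 0.38 (adjusted p = 0.366), and its lowest value over all settings was 0.32. It was 0.87 (adjusted p = 0.0639) without CD34- arrays 1 and 2.

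**Figure D3:**
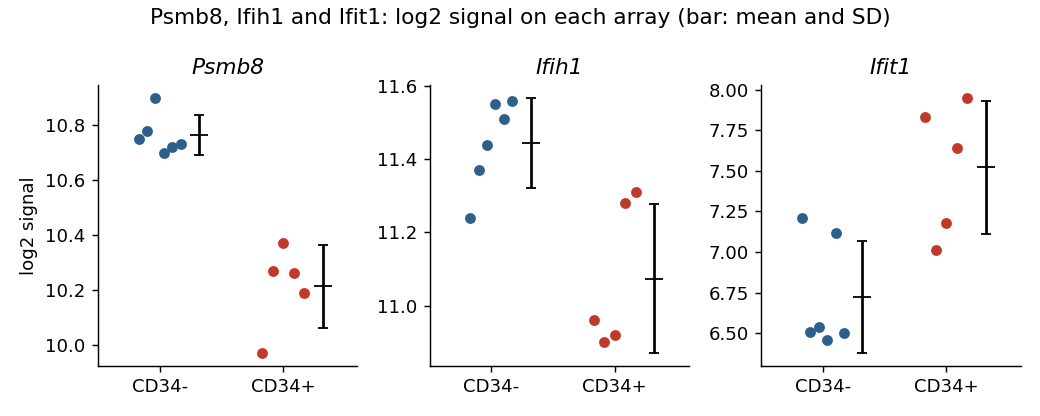
Log2 signal of Psmb8, Ifih1 and Ifit1 on each CD34- array (blue, 6 points) and CD34+ array (red, 5 points), in replicate order from left to right, with the mean and SD of each group in black. Psmb8 is the gene of these 3 whose groups do not overlap, with 9.97 to 10.37 on CD34+ arrays and 10.70 to 10.90 on CD34- arrays.

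The other effector genes were not called. Rsad2 encodes viperin, which makes a chain-terminating nucleotide. It read 6.25, 8.24, 7.34, 7.45 and 7.64 on CD34+ arrays 1 to 5 and 6.21 to 7.13 on CD34- arrays, with CD34+ array 1 among the CD34- values and the other 4 CD34+ arrays above them. Its difference was 0.81 (SE 0.33, limma adjusted p = 0.0803) and was called without CD34+ array 1 (1.10, adjusted p = 0.00922). Ifit3, a partner of Ifit1, ranged from 6.38 to 8.34 on CD34+ arrays and from 5.42 to 7.37 on CD34- arrays, and differed by 0.48 (SE 0.41, adjusted p = 0.414). Isg20, an exonuclease gene, differed by 0.43 (SE 0.27, adjusted p = 0.258) and was called without CD34+ arrays 1 and 2 (0.78, adjusted p = 0.0423).

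The oligoadenylate synthetase family, whose enzymes make the messenger that activates RNase L, showed small differences. These were 0.07 for Oas1a (SE 0.23), 0.26 for Oas2 (SE 0.25), -0.08 for Oasl1 (SE 0.31) and 0.31 for Oasl2 (SE 0.21), the last 2 being relatives without that activity or with little of it. Ifi35 differed by 0.30 (SE 0.16) on its brightest probe set and by -0.16 and -0.45 on the other 2. Ifi27, an inducible mitochondrial and nuclear envelope protein gene, differed by -0.08 (SE 0.16), and its other probe set gave -0.74 (adjusted p = 0.0292). Xaf1, a gene linked to cell death, differed by -0.09 (SE 0.21). Parp14, an ADP-ribosyltransferase gene, differed by -0.41 (SE 0.19, limma adjusted p = 0.112). The median of the 12 effectors was 0.28 as deposited, 0.01 after quantile normalization and -0.20 with equal array medians, so no direction is given for them as a group. Ifit2, Mx1, Mx2 and Bst2 were too dim to be tested. Mx1, a dynamin-like antiviral GTPase gene, read 3.34 to 6.60 on CD34+ and 5.22 to 6.25 on CD34- arrays, and Mx2 read 4.46 to 7.69 and 3.53 to 5.74. Ifit2 read 3.03 to 5.73 and 3.96 to 5.60, and Bst2, which tethers budding virus, 2.25 to 5.69 and 3.42 to 5.83.

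Differences of genes with and without a promoter motif overlapped in range, and a relation between them was not tested. Among tested genes with a promoter in the table, the 12 with a response element had a median difference of 0.05 (from -0.37 to 0.81) and the 16 without one -0.08 (from -0.63 to 0.53). The difference was positive for 7 of these 12 and 5 of these 16. For the gamma-activated site the medians were 0.07 over 7 genes with it and -0.07 over 21 without it, of which 4 and 8 were positive. Ifit1, Ifit3 and Rsad2, whose response elements are printed above, had differences of 0.48 to 0.81. Gbp2 and Irgm1, which carry the same kind of element, had differences of -0.18 and -0.36.

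Feedback inhibitors and GTPases were not called either. Usp18, a protease that removes Isg15 from proteins and blocks the type I receptor, read 8.93, 9.48, 9.10, 9.32 and 9.54 on CD34+ arrays 1 to 5 and 9.46, 9.93, 9.23, 9.56, 9.27 and 9.52 on CD34- arrays 1 to 6. The groups overlapped over most of their range, with a difference of -0.22 (SE 0.16, limma adjusted p = 0.325). Socs1, an inhibitor of Janus kinases, was too dim to be tested and read 2.12 to 5.34 on CD34+ and 1.54 to 6.56 on CD34- arrays. Irgm1, a regulator of immunity-related GTPases, read 8.27, 8.80, 8.70, 9.00 and 8.74 on CD34+ arrays and 9.19, 9.14, 9.11, 9.34, 8.69 and 8.89 on CD34- arrays. CD34+ array 1 was the lowest, and CD34- arrays 5 and 6 lay among the CD34+ values, with a difference of -0.36 (SE 0.17, limma adjusted p = 0.122). Igtp, another GTPase of that family, differed by -0.10 (SE 0.13). The guanylate-binding protein genes Gbp2 and Gbp3 differed by -0.18 (SE 0.20) and -0.02 (SE 0.35).

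Class I processing held the member with the smallest p. Psmb8 encodes a catalytic subunit of the immunoproteasome, which interferon puts in place of a standard subunit. Its log2 signals were 9.97, 10.27, 10.37, 10.26 and 10.19 on CD34+ arrays 1 to 5 and 10.75, 10.78, 10.90, 10.70, 10.72 and 10.73 on CD34- arrays 1 to 6. Every CD34+ array lay below every CD34- array. The difference was -0.55 (SE 0.11, limma adjusted p = 0.00358), a level 1.47-fold higher in CD34- cells. It stayed called on leaving out any single array (highest adjusted p = 0.0117), after quantile normalization (-0.49, adjusted p = 0.00844) and with both CD34+ arrays 1 and 2 left out (-0.49, adjusted p = 0.00967). A dimmer Psmb8 probe set differed by -0.16 (adjusted p = 0.56), and the mean of both by -0.36 (adjusted p = 0.0667).

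The other interferon-induced subunits were not called. Psmb9 read 10.01, 10.49, 10.95, 10.85 and 10.96 on CD34+ arrays 1 to 5 and 11.67, 10.82, 11.82, 10.94, 11.62 and 10.83 on CD34- arrays 1 to 6. Its CD34- values fell into a higher trio (arrays 1, 3 and 5) and a lower trio (arrays 2, 4 and 6) that lay within the CD34+ values. The difference was -0.63 (SE 0.23, limma adjusted p = 0.0576). Psmb10 read 9.17, 8.45, 9.12, 9.05 and 9.03 on CD34+ arrays and 9.47, 9.14, 10.04, 9.11, 9.47 and 9.20 on CD34- arrays, with the same trios in CD34- cells, and differed by -0.44 (SE 0.19, adjusted p = 0.10).

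Standard catalytic subunits were compared because the inducible ones replace them. Of the 3, Psmb7 was lower (-0.84, SE 0.23, limma adjusted p = 0.0177), Psmb5 differed by -0.28 (SE 0.10, adjusted p = 0.0527) and Psmb6 by -0.16 (SE 0.35, adjusted p = 0.766). That is 33.3% called, against 24.7% of all tested genes. The mean of the inducible trio minus that of the standard trio was -1.39 ± 0.34 (SD, n = 5) in the CD34+ fraction. It was -1.28 ± 0.38 (SD, n = 6) in the CD34- fraction. These differed by -0.12 (two-sided exact permutation test over arrays, p = 0.606, smallest possible p = 0.00433), so an unequal change of the sets was not found at this number of arrays and this spread. Within the standard trio, Psmb6 alone read 9.86 to 11.27 on CD34+ and 9.86 to 11.67 on CD34- arrays.

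**Figure D4:**
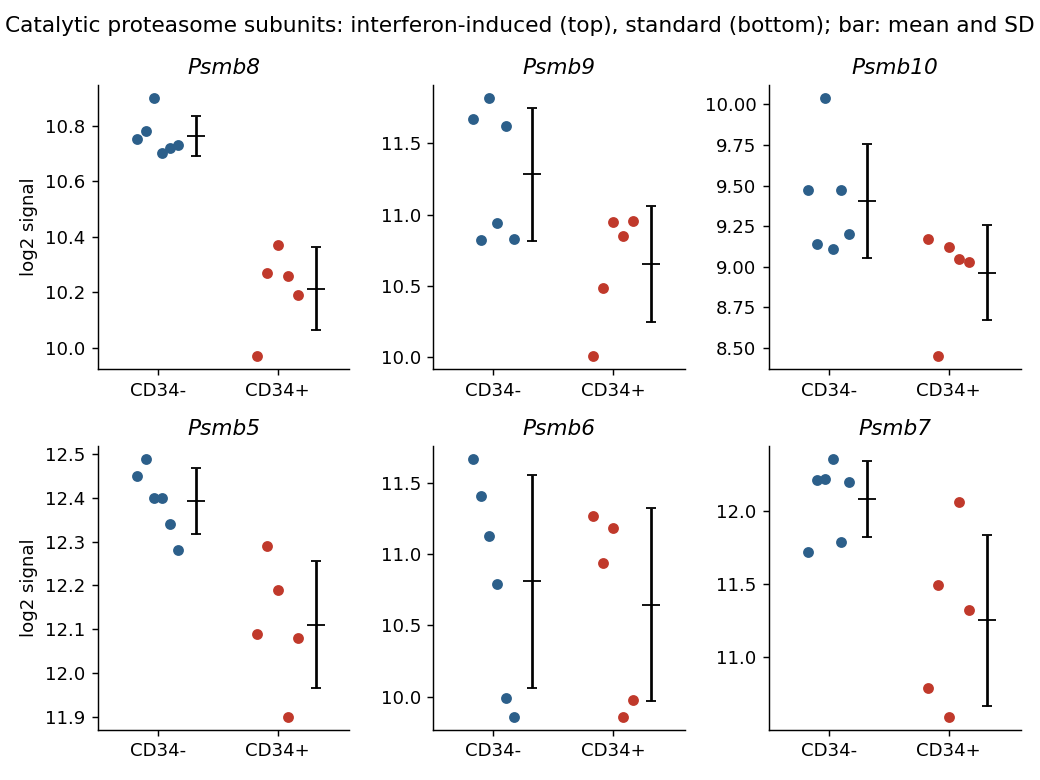
Log2 signal of the interferon-induced catalytic proteasome subunit genes (top row) and the standard ones (bottom row) on each CD34- array (blue, 6 points) and CD34+ array (red, 5 points), in replicate order, with group mean and SD in black and a separate axis for each gene. Psmb8 separates the groups, while Psmb9 and Psmb10 have CD34- arrays that overlap with CD34+ arrays.

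Peptide transport and loading genes of the list were not called. Tap1 and Tap2, the partners of the transporter that brings peptides into the endoplasmic reticulum, differed by -0.06 (SE 0.15) and -0.18 (SE 0.23). Tapbp, which encodes tapasin, the bridge between transporter and class I, differed by -0.36 (SE 0.15, limma adjusted p = 0.0887). Psmb9, Tap1, Psmb8 and Tap2 are neighbours on chromosome 17 (GRCm38.p6), where the Psmb9 and Tap1 genes point away from each other and are 225 bases apart, from 34187330 to 34187556. The difference of Psmb9 was -0.63 and that of Tap1 -0.06. Nlrc5, a transactivator of class I genes, differed by -0.08 (SE 0.16). B2m, the light chain of MHC class I, read 15.10, 14.47, 14.63, 14.55 and 14.81 on CD34+ arrays and 14.27 to 14.70 on CD34- arrays, and differed by 0.23 (SE 0.12, limma adjusted p = 0.188). A second B2m probe set gave -0.31 (adjusted p = 0.437). By mean signal over all arrays, the class I processing genes were not dim. They ranged from brighter than 63.7% of genes for Tap2 to brighter than 99.7% for B2m.

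Further class I genes came from lists of related genes. Called in either direction were 20% of the heavy chain genes tested and 42.9% of the loading and peptide supply genes. Over all tested genes the share was 24.7%. Of 5 heavy chain genes tested, H2-M3, which presents formylated peptides, was lower (-0.50, SE 0.17, limma adjusted p = 0.0418). H2-K1 and H2-D1, classical heavy chains whose sequences are similar enough that their probe sets may share signal, differed by -0.14 (SE 0.13) and -0.41 (SE 0.18, adjusted p = 0.111). Of 13 heavy chain genes listed, 7 had no probe set with a symbol of their own. Probe sets shared by several heavy chain genes were not tested. Among those without overlap more were lower than higher on CD34+ arrays. The probe set shared by H2-K1 and H2-D1 read 10.75 to 11.88 on CD34+ and 12.48 to 12.95 on CD34- arrays. That of H2-Q6 and H2-Q8 read 12.21 to 12.75 and 12.97 to 13.15, and another that adds H2-Q4 read 7.71 to 8.85 and 9.47 to 10.2. The brighter probe set of H2-T9, H2-T22 and H2-T10 read 13.25 to 13.45 and 13.5 to 13.7. Only the brighter probe set of H2-T23 and H2-T-ps was higher without overlap, at 13.42 to 13.85 and 12.72 to 13.30. The rest, such as that of H2-Q7 and H2-Q9, overlapped. Of 7 loading and peptide supply genes 3 were lower and none higher. Pdia3, a thiol oxidoreductase of the peptide-loading complex that also folds other glycoproteins, read 8.88, 9.14, 10.47, 10.32 and 9.67 on CD34+ arrays and 11.16 to 11.41 on CD34- arrays. The groups did not overlap, and the difference was -1.57 (SE 0.24, adjusted p = 7.93e-04). Erap1, a peptide-trimming aminopeptidase of the endoplasmic reticulum, read 8.44 to 9.20 and 9.44 to 9.75, also without overlap, and differed by -0.78 (SE 0.15, adjusted p = 0.00261). The mean of the Erap1 probe sets differed by -0.36 (adjusted p = 0.0895). Canx, the chaperone calnexin, differed by -0.33 (SE 0.12, adjusted p = 0.0492), a call lost on leaving out any array other than CD34+ array 5 (highest adjusted p = 0.106). The H2-M3 call was lost without CD34+ array 1, 2 or 3 or CD34- array 2, 3, 4, 5 or 6 (highest adjusted p = 0.0833).

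Upstream of these genes, the receptor for interferon gamma had 1 chain called lower at the RNA level. Ifngr1, its ligand-binding chain, read 8.95, 10.56, 10.45, 10.29 and 10.31 on CD34+ arrays 1 to 5 and 11.62, 11.67, 11.36, 11.60, 11.00 and 11.21 on CD34- arrays 1 to 6. No CD34+ array reached a CD34- array, and array 1 was the lowest. The difference was -1.30 (SE 0.25, limma adjusted p = 0.00283), and -1.01 (adjusted p = 3.37e-04) without CD34+ array 1. It was the 1 gene called of 6 tested ligand and receptor genes, or 16.7%, against 24.7% of all tested genes. Ifngr2, the second chain, differed by -0.51 (SE 0.37), and the type I receptor chains Ifnar1 and Ifnar2 by 0.15 (SE 0.15) and 0.27 (SE 0.17). The ligand genes Ifna1, Ifna2, Ifna4, Ifnb1 and Ifng were all below the brightness filter. Ifng, which T cells make, read 4.28 to 6.62 on CD34+ and 5.80 to 7.99 on CD34- arrays.

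Of 7 kinase and factor genes tested 1 was lower and 1 higher, or 28.6% called. The share called was 14.3% for the feedback genes and 12.5% for the sensors and adaptors below, against 24.7% of all tested genes. The kinase gene Jak1, which serves both receptors, was lower (-0.73, SE 0.21, limma adjusted p = 0.0258), and lost its call on leaving out CD34+ array 2 (-0.68, adjusted p = 0.0556) or CD34- array 2 (-0.65, adjusted p = 0.0561). Leaving out both CD34+ arrays 1 and 2 gave -0.42 (adjusted p = 0.132). Jak2, which serves the interferon gamma receptor, was higher as deposited (0.33, SE 0.11, adjusted p = 0.042), and its difference was -0.15 with equal array medians. That call was lost without CD34+ array 2 or 4 or CD34- array 1, 2, 3, 5 or 6 (highest adjusted p = 0.0877). Ptpn2, a phosphatase that removes phosphate from Janus kinases, was higher among 7 feedback genes (0.66, SE 0.10, adjusted p = 7.98e-04), at 0.18 (adjusted p = 0.226) with equal array medians and 0.49 (adjusted p = 0.171) for the mean of its probe sets. In the list of nucleic acid sensors and adaptors 1 of 8 tested, the kinase gene Ikbke, was lower (-0.71, SE 0.22, adjusted p = 0.0345). The Ikbke call was lost on leaving out CD34+ array 1, 2, 4 or 5 or CD34- array 1, 3, 4, 5 or 6 (highest adjusted p = 0.0747).

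Of 27 further interferon-induced genes 2 were higher and 3 lower, with a median of 0.00. That is 18.5% called, against 24.7% of all tested genes. Cxcl9, a chemokine gene induced by interferon gamma that attracts T cells, read 9.82, 9.14, 8.90, 9.72 and 9.81 on CD34+ arrays 1 to 5 and 8.14, 8.20, 7.74, 7.91, 8.41 and 8.29 on CD34- arrays 1 to 6. The groups did not overlap, and the difference was 1.36 (SE 0.20, limma adjusted p = 5.62e-04). Cxcl10, a related chemokine, differed by -0.14 (SE 0.41, adjusted p = 0.825). Tor3a, an interferon-responsive ATPase gene, was also higher (0.72, SE 0.19, adjusted p = 0.0154), at 0.24 (adjusted p = 0.337) with equal array medians. The ADP-ribosyltransferase family genes Parp9 (-0.76, SE 0.17, adjusted p = 0.00667) and Parp12 (-0.46, SE 0.13, adjusted p = 0.0233) and the GTPase gene Irgm2 (-0.56, SE 0.14, adjusted p = 0.0125) were lower. Parp12 lost its call without CD34- array 2, 4 or 6 (highest adjusted p = 0.0541).

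Other cell types and RNA length moved with the fractions. In bulk samples fewer cells of a type and less RNA per cell cannot be told apart. Of 7 T cell markers 5 were tested and all 5 were lower in CD34+ cells, and the mean log2 signal of the 7 ranged from 5.15 to 7.20 on CD34+ and from 8.33 to 9.32 on CD34- arrays. Of 11 Langerhans and myeloid markers 6 of the 9 tested were higher (H2-Ab1, H2-Aa, Itgax, Csf1r, C1qb and Tyrobp) and none lower. The Langerhans cell marker Cd207 was not called (0.24, SE 0.65, limma adjusted p = 0.815), nor were Cd74 and Lyz2. Means of the 11 were 7.71 to 9.14 on CD34+ and 7.42 to 7.70 on CD34- arrays, the highest on CD34+ arrays 4 and 5. Fibroblast markers were higher for 3 of 3 tested, melanocyte markers lower for 1 of 5 and endothelial markers below the filter for all 4. Bulge markers were higher for 7 of 7, but they include Cd34, whose call follows from the sort. Krt15 was called in 6 of 26 other settings, with differences from -0.04 to 0.58. Basal keratinocyte markers, read in both fractions at means of 12.81 to 13.52, were lower for 2 of 5, of which Trp63 was called in 11 of 26 other settings. Of all tested genes 24.7% were called. Cd34, Lhx2, Pdgfra and C1qb passed the brightness filter only through CD34+ arrays, and Cd7 only through CD34- arrays. Their means in the other fraction lay under 6.59, the lowest mean of a tested gene, so these marker counts depend in part on the filter. T cells and myeloid cells are known to express immunoproteasome genes, and the part of these cells in the difference of Psmb8 was not tested.

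The 3-prime to 5-prime actin ratio, a measure that goes up when RNA or its labelled copies are short, was 2.90 to 5.24 on CD34+ arrays and 2.19 to 2.76 on CD34- arrays on the log2 scale. The fractions did not overlap in this ratio, so a fit with it as a covariate cannot tell fraction and RNA length apart. In such a limma fit 96 genes were called higher and 30 lower of all tested, against 1350 and 1347 without the covariate. Ifit1, Ifih1 and Psmb8 lost their calls with it, and Psmb8 differed by -0.42 (adjusted p = 0.278). In that fit Psmb9 differed by 0.00 and Ifngr1 by -0.69 (adjusted p = 0.414), and Cxcl9 by 1.42 (adjusted p = 0.0544). No gene of the related interferon and class I lists was called in it, so Pdia3, Erap1 and Canx lost their calls as well. CD34+ array 1 had the highest ratio and the lowest median of the 34 genes, at -0.34 relative to the CD34- mean, against -0.09 to 0.07 on the other CD34+ arrays.

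**Figure D5:**
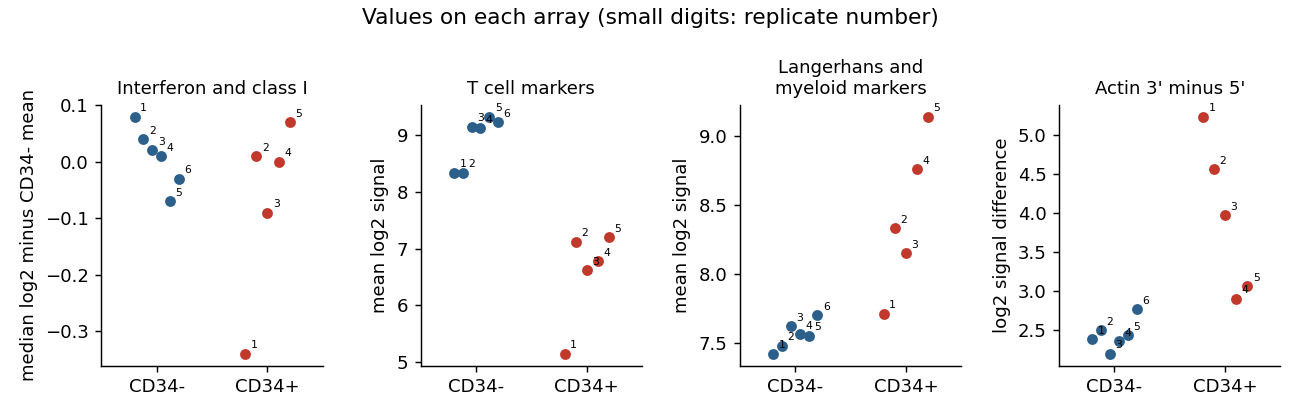
Left to right, the median over the 34 genes of the log2 signal minus the CD34- mean, the mean log2 signal of 7 T cell markers and of 11 Langerhans and myeloid markers, and the actin 3-prime minus 5-prime log2 signal, on each CD34- (blue) and CD34+ (red) array with its replicate number. The gene median overlaps between the groups, while T cell markers, myeloid markers and actin ratio do not. For the myeloid markers the lowest CD34+ mean is 7.71 and the highest CD34- mean 7.70.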

How the data were processed

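The deposited values are log2 signals, which the authors computed with MAS5, as the submitters' processing notes say (version and settings: not given in the sources used here). That they are log2 follows from the values themselves, since linear signals trimmed by 2% at each end have a mean of 500.002 to 500.004 on all 11 arrays. Values were used without further normalization or detection calls, so a low value is dim and not absent, and the number of arrays limits the precision. Of 45101 probe sets, 64 were controls, 34945 had 1 gene symbol in the platform annotation, 932 several and 9160 none. The dimmest 40% of genes by mean signal were left out, and other probe sets passed a like filter of their own. Groups came from sample titles.

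limma 3.58.1 in R 4.3.3 fitted the difference, with variances moderated along an intensity trend, called at an adjusted p under 0.05, and was tested on simulated data. The genes, lists and tests were chosen with earlier results of these data known. All 42 genes are named. Values on every array are given for called genes, for the gene with the smallest p of a role without a call, and for some chosen after their values were seen. Related genes are named where called (at most 4 in each direction per list), and the few others named beside them, such as Cxcl10 and the receptor chains, were chosen after their values were seen. Alternatives were other normalizations, filters, offsets, probe set summaries and moderation, the actin covariate, the replicate number as a block, and arrays left out. Leaving out CD34- arrays 1 and 2 was added after seeing the data.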

Additional observations from a re-analysis of the deposited data

Results flagged for a closer look

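An array far from the others of its group was looked for in each group of 41 values (40 genes, and the contrast of proteasome subunit sets), and 3 of 82 groups held one. Chance gives about 1 in 20. Ifi35 read 13.2 on CD34+ array 1, against 12.18 to 12.46 on the other CD34+ arrays. Psmb10 read 8.45 on CD34+ array 2, against 9.03 to 9.17. Oasl1 read 5.93 on CD34+ array 3, against 6.73 to 7.03.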

How the results depend on the processing

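Of 871 values of single genes under other settings, 740 kept their direction and their side of the threshold, 31 lost a call, 28 gained one and 72 changed sign without a call in either fit. No called value reversed. The count of the 34 genes called higher, 1 as deposited, was 0 with quantile normalization, equal array medians, no brightness filter, the dimmest 60% left out, the actin covariate, the replicate block, adjusted p under 0.01 or without CD34- arrays 1 and 2. It was 2 with array weights and 3 without CD34+ arrays 1 and 2. The count called lower, 2 as deposited, was 18 with equal medians, 0 with the actin covariate and 1 with quantile normalization, the mean of probe sets, adjusted p under 0.01, or without arrays 1 and 2 of either fraction. On leaving out each array the counts were 0 to 2 higher and 1 to 3 lower. The median of -0.08 was -0.56 with equal medians, 0.10 with the actin covariate, 0.04 without CD34+ arrays 1 and 2, and -0.10 to -0.03 on leaving out each array. Over all genes, 395 were higher and 5217 lower with equal medians, 96 and 30 with the actin covariate, 548 and 456 at adjusted p under 0.01, and 835 and 776 without CD34- arrays 1 and 2. There were 743 higher with the dimmest 60% left out and 783 lower with the mean of probe sets. Leaving out each array gave 969 to 1370 higher and 896 to 1419 lower. The contrast of proteasome subunit sets was not called in any setting run, and was -0.22 to 0.00 on leaving out each array. Apart from construction (fewer arrays or genes, a stricter threshold), the cause of these changes was not tested.

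The replicate numbers are not said to pair the arrays, and the deviations of same-numbered arrays correlated at 0.16, 0.02, 0.19, 0.13 and 0.04. With the replicate block over arrays 1 to 5, 0 of the 34 genes were called higher and 2 lower, namely Psmb8 (-0.56, adjusted p = 0.0207) and Psmb9 (-0.72, adjusted p = 0.0372), with 1044 higher and 981 lower of all genes. Psmb9 was also called without CD34- array 2 (adjusted p = 0.0473) or 6 (adjusted p = 0.0499).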

Other observations

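CD34- arrays differed among themselves. Psmb9 read 11.62 to 11.82 on arrays 1, 3 and 5 and 10.82 to 10.94 on arrays 2, 4 and 6, and Psmb10 read 9.47 to 10.04 and 9.11 to 9.20 on the same trios. Psmb6 read 11.67 and 11.41 on CD34- arrays 1 and 2, 11.13 and 10.79 on arrays 3 and 4, and 9.99 and 9.86 on arrays 5 and 6. In CD34+ cells Psmb6 read 11.27, 10.94 and 11.18 on arrays 1 to 3 and 9.86 and 9.98 on arrays 4 and 5. The Y-linked gene Eif2s3y read 9.20 and 9.25, 10.93 and 11.07, and 7.79 and 8.15 on the same successive CD34- arrays, so that neighbouring array numbers had similar values. Melanocyte markers had means of 11.10 and 11.09 on CD34- arrays 1 and 2 and 9.26 to 9.60 on the other 4, and T cell markers 8.33 on both and 9.12 to 9.32. These values were noticed in the data and were not tested.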
